A study of Mus musculus with 4 samples.

Results

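The lipid-associated macrophage genes examined here were 8 of the 33696 genes in the count matrices, Apoe, Trem2, Spp1, Gpnmb, Fabp5, Cd36, Lpl and Cd9. They were listed by name, with earlier results of these data known. Their unique molecular identifiers (UMIs, 1 for each captured RNA molecule) were counted in live CD45+ cells that had been sorted from subcutaneous KPC pancreatic tumours, which grew from a mouse pancreatic cancer line in male C57BL/6 mice (C57BL/6NHsd) aged 8 to 10 weeks. The 4 groups were untreated tumours, tumours given the STING agonist ADU-S100 (2 µg injected once into the tumour), tumours of mice given the LTbR agonist (100 µg of the antibody 4H8, injected 4 times) and tumours given both, called the combination. Each group was 1 library from 10 pooled tumours resected on day 14, so no comparison between groups could be tested, and every interval below is a 95% interval that covers counting error alone. The libraries belong to the second of a pair of experiments, and the first was not analysed here.

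Macrophages that take up lipid from dying cells or cell debris share a set of genes that is known from fat tissue, from the arterial wall and, in disease-associated microglia, from the brain. TREM2 is a surface receptor that binds lipids and lipoproteins and signals through the adaptor TYROBP. APOE carries lipids out of the cell, LPL cuts triglycerides in lipoproteins, CD36 takes up fatty acids and oxidized lipoproteins, and FABP5 binds fatty acids inside the cell. Osteopontin, the product of Spp1, is a secreted protein that binds integrins and CD44, GPNMB is a membrane glycoprotein of lysosome-rich cells, and CD9 is a tetraspanin of the plasma membrane. In tumours such cells are known as TREM2+ or SPP1+ macrophages.

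The promoters of Spp1, Trem2 and Gpnmb are shown because Spp1 and Gpnmb stood furthest above the untreated library with the STING agonist while Trem2 was lowest in the combination. Each run is the 250 bases before a RefSeq start site of build GRCm38.p6, on the strand of the gene, with the motifs found by search in capitals.
Spp1 (chr5:104434861-104435110, plus strand): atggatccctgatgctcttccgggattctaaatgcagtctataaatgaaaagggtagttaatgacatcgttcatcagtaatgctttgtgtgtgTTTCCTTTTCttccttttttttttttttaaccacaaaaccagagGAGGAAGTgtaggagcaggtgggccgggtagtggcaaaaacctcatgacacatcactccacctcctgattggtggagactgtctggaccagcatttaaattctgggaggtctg
Trem2 (chr17:48346151-48346400, plus strand): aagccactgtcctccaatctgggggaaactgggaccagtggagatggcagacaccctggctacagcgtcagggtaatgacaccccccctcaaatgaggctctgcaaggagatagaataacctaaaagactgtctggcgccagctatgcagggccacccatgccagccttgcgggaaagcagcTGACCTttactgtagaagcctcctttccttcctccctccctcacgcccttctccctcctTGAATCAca
Gpnmb (chr6:49036268-49036517, plus strand): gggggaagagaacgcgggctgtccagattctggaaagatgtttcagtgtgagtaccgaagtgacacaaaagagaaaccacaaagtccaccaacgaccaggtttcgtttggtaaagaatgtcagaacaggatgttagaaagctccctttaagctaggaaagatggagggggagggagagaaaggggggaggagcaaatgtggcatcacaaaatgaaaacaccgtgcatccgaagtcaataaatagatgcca
Both strands were searched for 5 motifs. These were CACGTG, the E-box read by TFEB and its relatives, TGANTCA for AP-1, GAGGAAGT for PU.1, the interferon-stimulated response element (a pair of GAAA runs with any 2 bases between them) and AGGTCA for nuclear receptors, and none of the hits shown overlap. The Spp1 window shown held the response element (157 to 148 bases before the start, on the other strand) and the PU.1 motif (113 to 106), which 2.98% and 2.44% of 32851 promoters held, and the window of a second Spp1 start, at position 104436192, held none of the 5. The Trem2 window held the AGGTCA motif on the other strand (68 to 63) and the AP-1 motif (9 to 3), found in 14.02% and 6.75% of promoters, and the Gpnmb window held none of the 5. Promoters were found for 6 of the 8 genes, and among the other 3 genes only Cd36 held a motif, AGGTCA, 228 to 223 bases before its start. A match describes letters and not a site in use.

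In the mouse genome (GRCm38) Apoe lies on chromosome 7 (19696109 to 19699188, minus strand), Trem2 on chromosome 17 (48346401 to 48354147, plus), Spp1 on chromosome 5 (104435118 to 104441050, plus) and Gpnmb on chromosome 6 (49036546 to 49070929, plus). Fabp5 lies on chromosome 3 (10012548 to 10016607, plus), Cd36 on chromosome 5 (17781690 to 17888801, minus), Lpl on chromosome 8 (68880491 to 68907448, plus) and Cd9 on chromosome 6 (125460266 to 125494791, minus). Cd9 overlaps 2 genes on the other strand that were also counted, Gm28809 and Gm26728. Spp1 overlaps Gm42793 on its own strand, which was not counted. The annotation holds 1 pseudogene named after each of Fabp5 and Cd9, so the reads of those 2 members were less certain to be theirs alone.

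The libraries held 8730 to 16322 barcodes and 48858 of 55090 passed the filters. Clusters were named from marker genes, none of them a member, and each name stands for cells like that type. The macrophage and monocyte class had 25481 cells, 18005 in named subsets and 7476 in unnamed clusters, and the dendritic class had 2548. Every one of the 12 class markers was found in at least 22.9% of the class cells. Of the subset markers, 9 of 10 were found in over 10% of C1q-high macrophages (lowest 3.95%), 7 of 9 in over 10% of matrix-remodelling macrophages (lowest 2.61%), and all in the other named subsets described here. Depth differed, with a median of 6398 UMIs per class cell in the untreated library, 7096 with the STING agonist, 4691 with the LTbR agonist and 2786 with the combination, so levels are given as UMIs of the gene per 1000000 UMIs of the population (CPM) and shares of cells after each cell had been thinned to 2000 UMIs. Thinning left out 603, 732, 1408 and 3041 class cells, in the order untreated, STING agonist, LTbR agonist and combination, which all series of 4 values below follow. T cells and NK cells (7878 cells, median 1612 to 3616 UMIs) gave an upper level for free RNA, since they may hold some RNA of a member themselves. Between 34 and 83 barcodes were shared by any pair of libraries. One shallow unnamed cluster of 1104 cells, led by Pf4 and Fabp5, was left out of the class.

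By mean CPM over the libraries Apoe and Trem2 were both highest in C1q-high macrophages, which are marked by complement C1q genes and Mrc1 and resemble resident, debris-clearing cells. Apoe stood at 10126, 10784, 10497 and 12755 CPM there, and no other population reached those values. Matrix-remodelling macrophages, marked by Mmp12 and Atp6v0d2, followed with 5143 to 7938 CPM. MHC class II-high monocytes held 2190 to 2778 CPM. T cells and NK cells read 56.2, 58.8, 75.3 and 177 CPM, so the monocytes were also well above that level. Of all Apoe UMIs in the kept cells, 93.9% to 95.4% lay in the class, and within the class 62.4%, 51.0%, 59.4% and 48.7% lay in C1q-high macrophages.

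Trem2 had its highest mean CPM in the same 2 subsets, at lower counts, and their order differed between libraries. C1q-high macrophages had 296, 322, 260 and 239 CPM and matrix-remodelling macrophages 305, 319, 230 and 188, and the ranges of these 2 subsets over the libraries overlapped. Monocytes were lower, at 83.9 to 129 CPM in the MHC class II-high and 59.4 to 120 CPM in the Chil3 Vcan subset, and T cells and NK cells read 0.993 to 5.25 CPM. After thinning, 23.7%, 22.8%, 16.95% and 17.4% of class cells held a Trem2 UMI (45.8%, 44.0%, 30.8% and 23.1% before thinning), against 0% to 1.19% of T cells and NK cells.

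Spp1 had a second source. The carcinoma-like cells that had passed the sort, marked by Krt8 and Krt18, were highest with 11187, 7181, 9798 and 16638 CPM, and they held 41.4%, 12.8%, 33.8% and 55.6% of all Spp1 UMIs in the kept cells. Their 7 carcinoma markers summed to 872, 757, 769 and 900 CPM. All 6 fibroblast markers were also found in them, at 2200, 2261, 1787 and 1104 CPM summed, so the name rests on the keratins. The matrix-remodelling macrophages had 1675, 1561, 1373 and 1292 CPM. C1q-high macrophages had 509, 904, 889 and 706 CPM. MHC class II-high monocytes had 157, 116, 81.3 and 102 CPM. T cells and NK cells read 97.4, 181, 114 and 110.01 CPM together, and conventional, mature and plasmacytoid dendritic cells lay below that in every library (6.29 to 78.1 CPM). NK cells (112, 318, 130 and 172 CPM) stood above T cells (93.6, 96.8, 108 and 90.5 CPM) in each library, and the part of free RNA in either was not tested. For each Krt8 or Krt18 UMI the class held 146, 688, 461 and 301 Spp1 UMIs and the carcinoma-like cells 16.7, 14.9, 17.3 and 25.1. MHC class II-high monocytes had 39.5, 52.5, 35.4 and 58.1, and T cells and NK cells had 61.7, 146, 98 and 68.9. The part of carcinoma RNA in the Spp1 of these populations was not tested.

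Gpnmb differed widely between macrophage subsets. Matrix-remodelling macrophages had 102, 228, 258 and 213 CPM, while C1q-high macrophages had 9.13 to 13.4 CPM and MHC class II-high monocytes 1.24 to 3.21 CPM. The 1% of class cells with most Gpnmb held 64.2%, 42.5%, 59.2% and 65.1% of its UMIs. After thinning 2.44%, 6.59%, 3.52% and 2.97% of class cells had a Gpnmb UMI (3.79%, 9.16%, 5.00% and 3.69% before), and T cells and NK cells 0.119% to 0.541%.

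Fabp5 was highest outside the macrophages. Mature dendritic cells, the Ccr7 and Fscn1 cells that carry antigen to lymph nodes, had 2746, 2817, 2750 and 2615 CPM. Matrix-remodelling macrophages had 868, 1305, 1248 and 943 CPM, type 2 conventional dendritic cells 492, 687, 472 and 522 CPM, and type 1 conventional dendritic cells 4.81 to 44.1 CPM. The 3 kinds of dendritic cell thus spanned a wider range of Fabp5 than the named macrophage and monocyte subsets (106 to 1305 CPM). The shallow unnamed cluster outside the class held 1178, 1080.2, 1362 and 736 CPM. T cells and NK cells read 19.8 to 26.5 CPM.

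Cd36 set type 1 conventional dendritic cells, marked by Xcr1 and Clec9a, apart from the other dendritic cells, with 309, 181, 258 and 245 CPM against 0 to 41.9 CPM in the type 2, mature and plasmacytoid cells. A small unnamed subcluster of the class, led by Retnla, Kcnq1, Lyz1 and Ear2, was as high, with 420, 256 and 249 CPM in the untreated, LTbR agonist and combination libraries (50, 167 and 212 cells). In the STING agonist library it had 15 cells, and it was left unnamed because 4 of the 7 markers of type 2 conventional dendritic cells were raised in a cluster of the macrophage class. The named macrophage and monocyte subsets ran from 2.68 to 118 CPM, with matrix-remodelling macrophages (118, 27.0, 80.4 and 83.1 CPM) and Chil3 Vcan monocytes (70.0, 24.0, 65.0 and 93.4 CPM) highest on average, and T cells and NK cells read 0.993 to 4.03 CPM.

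Lpl was concentrated in that same Retnla subcluster. It stood at 216, 647 and 651 CPM there in the 3 libraries with 50 or more cells, and the subcluster held 10.0%, 19.5%, 41.3% and 38.0% of the class UMIs of Lpl while making up 1.24%, 0.271%, 2.26% and 2.48% of the class cells. No named subset exceeded 115 CPM, the value of matrix-remodelling macrophages in the untreated library, where the other libraries had 51.8, 54.1 and 64.5 CPM. Dendritic subsets had 0 to 7.98 CPM.

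Cd9 was shared widely. Among named populations of 50 cells or more neutrophils had the highest level in every library, 1462, 1397, 1366 and 1363 CPM, and they held 47.8% of all Cd9 UMIs in the STING agonist library, where they numbered 5038 cells, against 13.9% to 16.4% in the others. Matrix-remodelling macrophages had 458 to 518 CPM and C1q-high macrophages had 166 to 218 CPM. T cells and NK cells had 41.3 to 65.0 CPM.

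**Figure D1:**
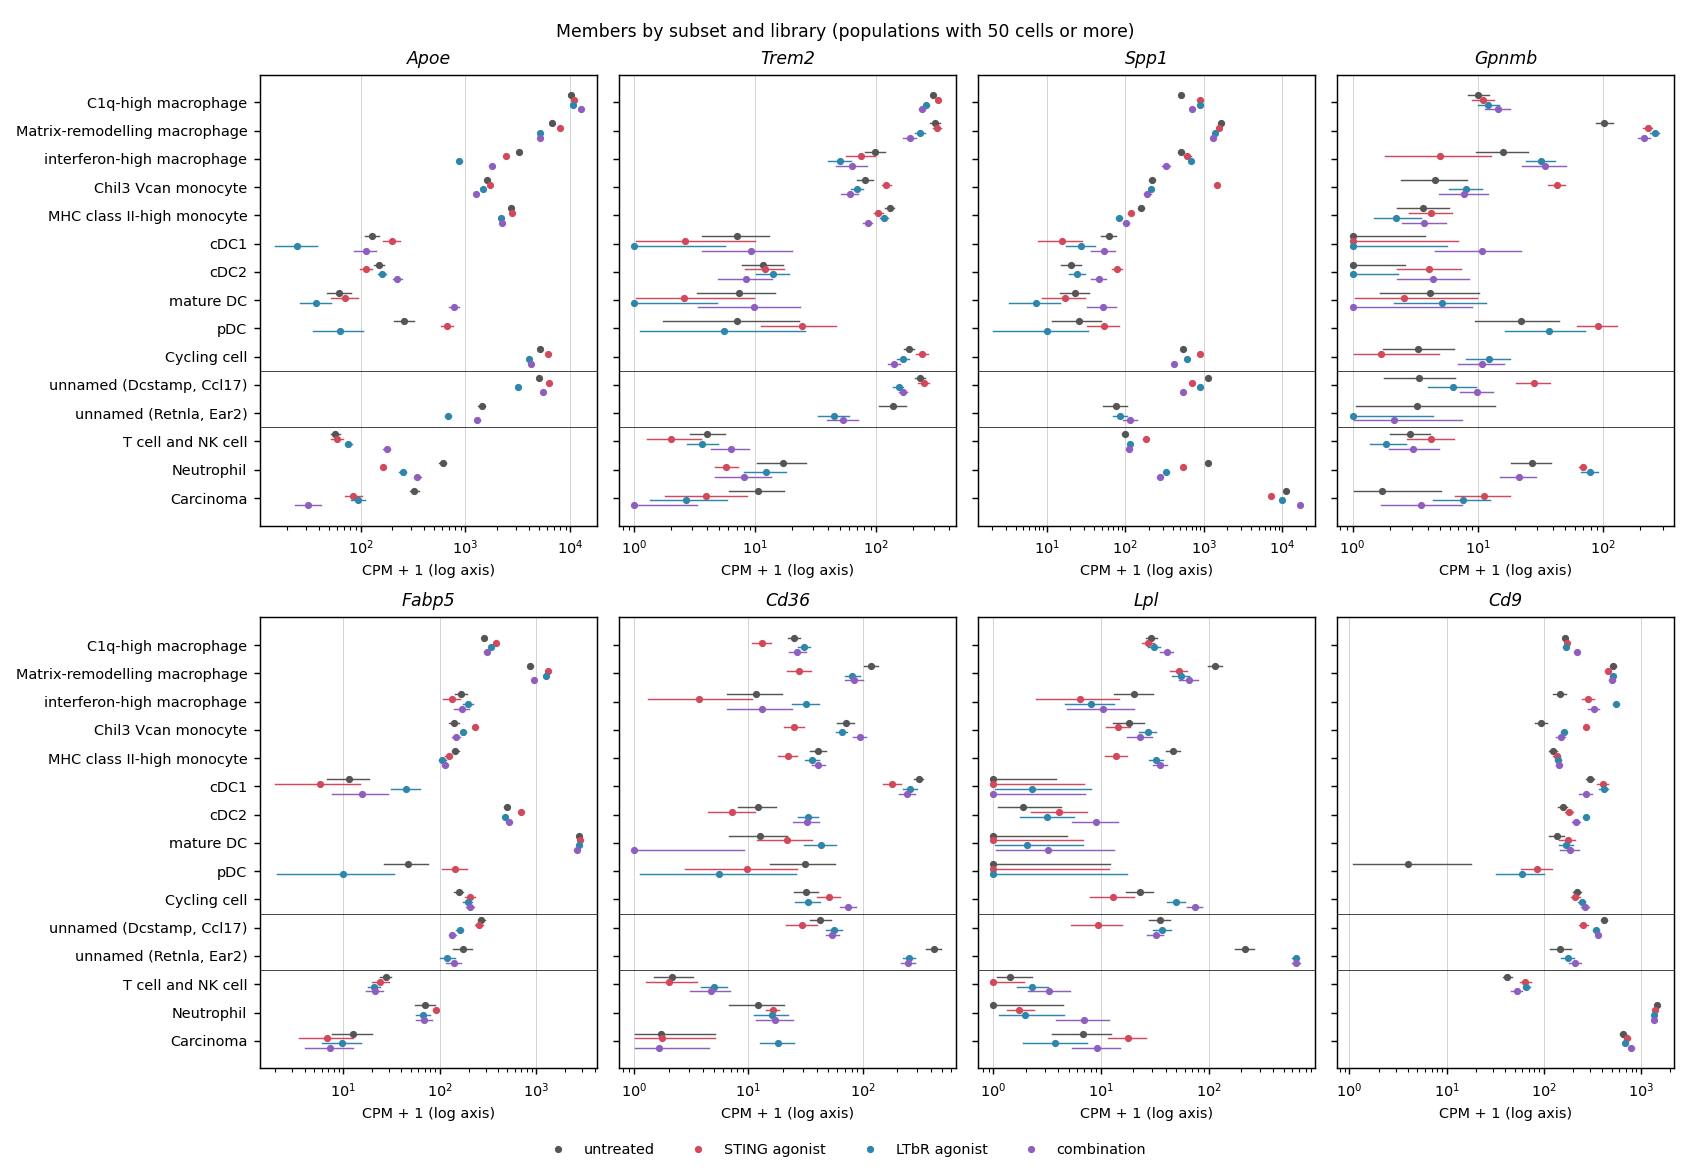
Level of each member (CPM + 1, logarithmic axis) by population and library, with points for the 4 libraries and bars for exact Poisson 95% intervals, for populations of 50 cells or more. Apoe and Trem2 peak in C1q-high and matrix-remodelling macrophages, Fabp5 in mature dendritic cells at 2615 to 2817 CPM and Lpl in the unnamed Retnla and Ear2 subcluster at up to 651 CPM.

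With the STING agonist against no treatment, 3 members were higher over the class by more than 1.5-fold and 2 were lower, where 4.92% of 10401 genes were higher and 11.7% lower. Gpnmb stood at 17.6 CPM (16.1 to 19.2) in the untreated and 65.0 CPM (62.6 to 67.5) in the STING agonist library, a log2 ratio of 1.89 (1.75 to 2.03), which 61 of the genes exceeded. Spp1 was 662 and 1337 CPM (log2 ratio 1.01) and Cd9 238 and 357 CPM (0.59), just past the limit. Cd36 was lower, 52.8 CPM (50.2 to 55.5) against 28.8 CPM (27.2 to 30.5), a log2 ratio of -0.87 (-0.99 to -0.77), as was Lpl, 33.1 CPM (31.0 to 35.2) against 19.99 CPM (18.7 to 21.4), with -0.73. Apoe (5384 and 4256 CPM), Trem2 (191 and 172 CPM) and Fabp5 (260 and 349 CPM) stayed within 1.5-fold. The median log2 ratio of the 8 was 0.14, that of all genes -0.20, and recentring on the latter brought Fabp5 past the limit (0.62) and took Lpl back within it (-0.53). Of all genes past 1.5-fold 29.7% were higher, and 61.7% after recentring.

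With the LTbR agonist 1 member was higher and 1 lower, against 3.72% and 2.9% of 10465 genes. Gpnmb was again higher at 42.0 CPM (40.04 to 44.1), a log2 ratio of 1.26 (1.11 to 1.40). Apoe was lower at 3566 CPM, with a log2 ratio of -0.59, and Trem2 at 128 CPM (125 to 132) lay just inside the limit with -0.58. Cd9 at 344 CPM (0.53), Lpl at 42.8 CPM (0.37), Spp1 at 795 CPM (0.26), Fabp5 at 287 CPM (0.14) and Cd36 at 51.3 CPM (-0.04) did not pass. Recentring on the median of all genes (-0.05) took Apoe back within the limit. Of all genes past the limit 56.1% were higher, and 65.8% after recentring.

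With the combination 2 members were higher and 1 lower, against 3.83% and 3.17% of 10202 genes. Gpnmb was 31.3 CPM (29.3 to 33.4), a log2 ratio of 0.83, and Lpl 49.7 CPM (47.2 to 52.3), a log2 ratio of 0.59 that just passed. Trem2 was lower at 118 CPM (114 to 122), with -0.70, the lowest of the 4 libraries. Cd36 (61.6 CPM), Cd9 (295 CPM), Spp1 (624 CPM), Fabp5 (240 CPM) and Apoe (4317 CPM) lay within 1.5-fold. Of all genes past the limit 54.8% were higher, and 74.5% after recentring on their median. These 3 comparisons share the untreated library, so their values are not independent of each other. Gpnmb was the one member above the untreated value by more than 1.5-fold in every treated library.

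Set against the STING agonist alone, the combination was higher in Lpl (log2 ratio 1.31) and Cd36 (1.10) and lower in Spp1 (-1.10) and Gpnmb (-1.05). With the subset shares of the class held equal in both libraries, Cd36 alone stayed past 1.5-fold (0.65), and Lpl went to 0.19, Spp1 to -0.48 and Gpnmb to -0.35. Over 10399 genes 6.45% were higher and 3.13% lower, and 67.3% of those past the limit were higher, or 51.8% after recentring. Set against the LTbR agonist alone, the combination had 0 members past 1.5-fold in either direction, where 1.29% and 1.04% of 10454 genes passed, and the member furthest from 0 was Gpnmb, with a log2 ratio of -0.43. Of the genes past the limit 55.3% were higher, or 68.3% after recentring. Both of these comparisons share the combination library.

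**Figure D2:**
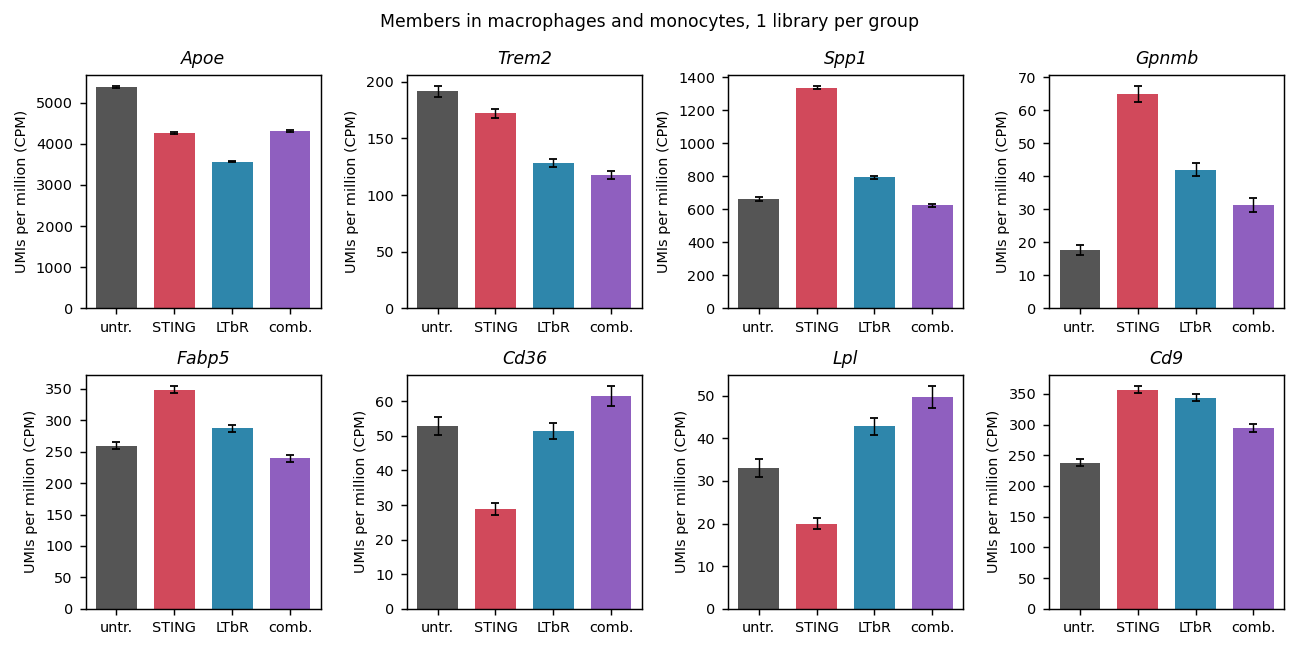
Level of each member (CPM, linear axis from 0) in macrophages and monocytes, with 1 bar per library and exact Poisson 95% intervals that cover counting error alone. Spp1 and Gpnmb are highest with the STING agonist (1337 and 65.0 CPM), Cd36 and Lpl lowest there (28.8 and 19.99 CPM), and Trem2 lowest with the combination (118 CPM).

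The subsets made up different shares of the class in the libraries, and the members differ between subsets. C1q-high macrophages, the main source of Apoe, were 26.1%, 16.4%, 17.3% and 13.5% of the class. With subset shares held equal in all libraries, the log2 ratio of Spp1 with the STING agonist went from 1.01 to 0.38, that of Cd9 from 0.59 to 0.06 and that of Lpl from -0.73 to 0.16. Gpnmb stayed past the limit in all 3 treated libraries (1.07, 0.82 and 0.72), as did Cd36 with the STING agonist (-0.72). The Apoe value with the LTbR agonist went from -0.59 to -0.22 and the Trem2 value with the combination from -0.70 to -0.51 and the Lpl value with the combination from 0.59 to 0.35, all then within 1.5-fold. Whether cells of a subset were more numerous in the tumours or were sampled more often cannot be told apart from 1 library a group.

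**Figure D3:**
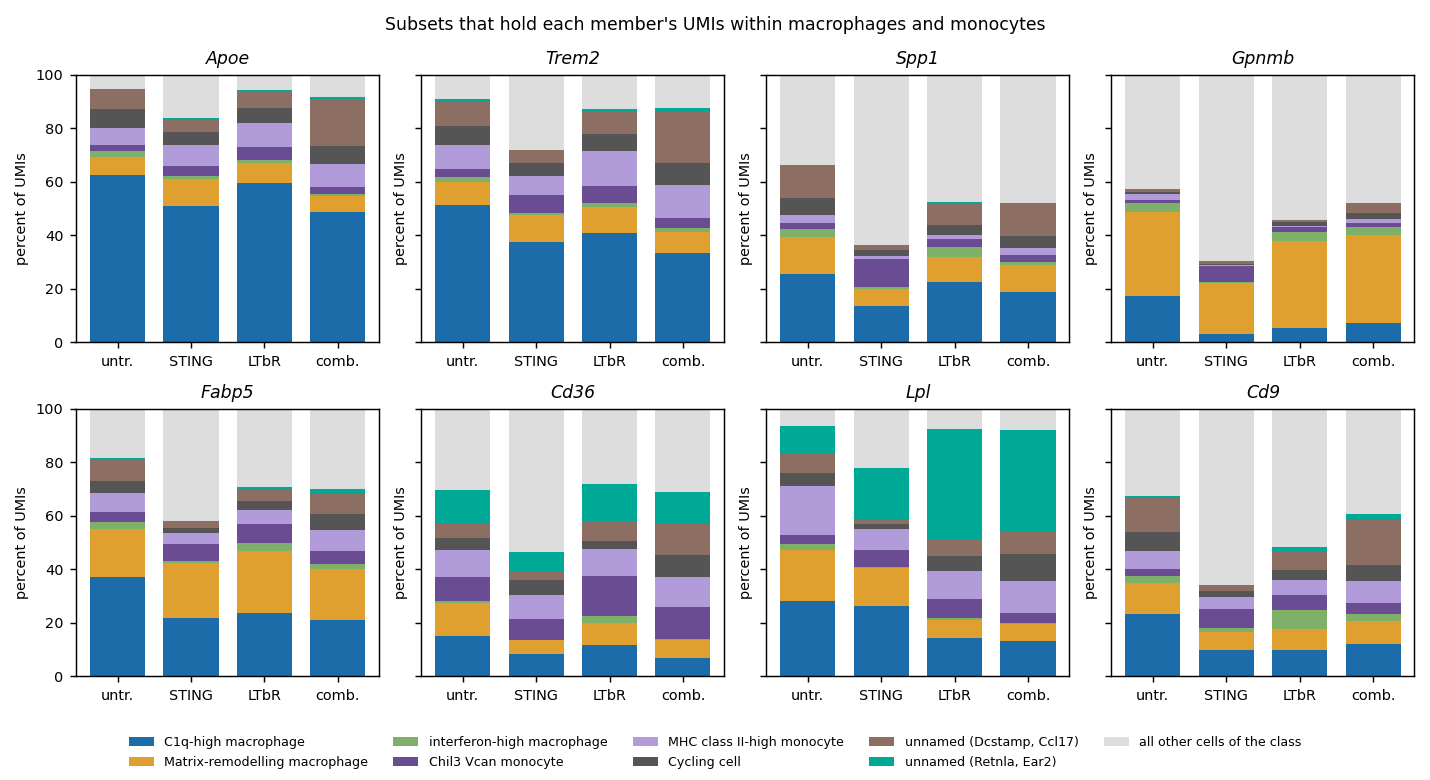
Percent of each member's UMIs in macrophages and monocytes that lay in each subset, 1 stacked bar per library (untr., untreated; comb., combination). The C1q-high share of Apoe is 62.4% in the untreated and 48.7% in the combination library, and 1 unnamed subcluster marked by Retnla and Ear2 holds up to 41.3% of Lpl.

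**Figure D4:**
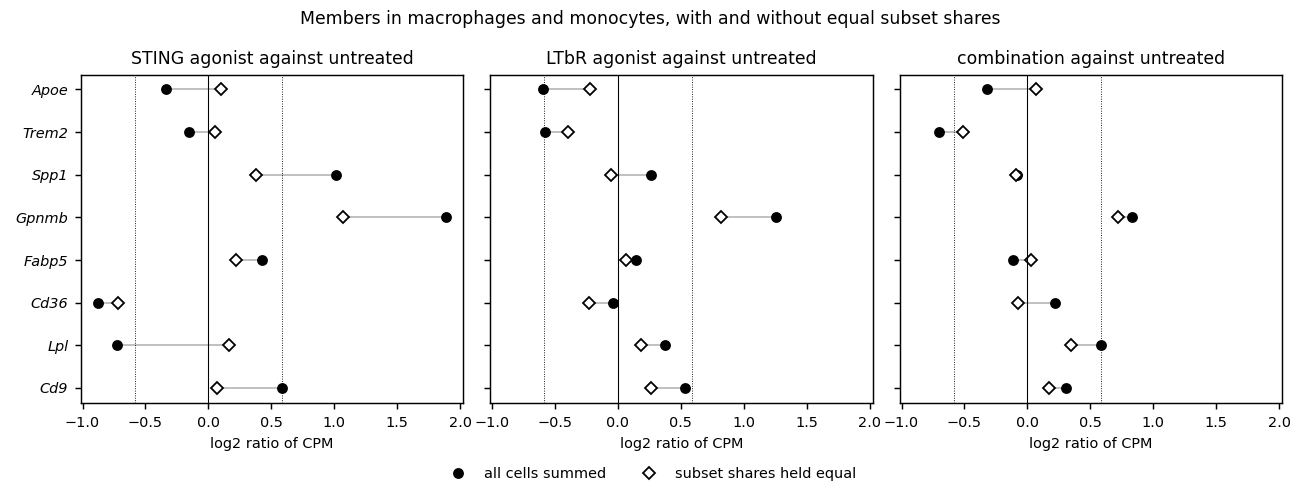
Log2 ratio of CPM of each member against the untreated library over all class cells (filled circles) and with subset shares held equal (open diamonds), with dotted lines at 1.5-fold. Gpnmb stays past the line in all 3 comparisons (1.07, 0.82 and 0.72), and Spp1 with the STING agonist moves from 1.01 to 0.38.

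Within the subsets the low Cd36 of the STING agonist library recurred. It passed 1.5-fold downwards in C1q-high macrophages (24.1 to 12.0 CPM), matrix-remodelling macrophages (118 to 27.0 CPM, log2 ratio -2.13), Chil3 Vcan monocytes (70.0 to 24.0 CPM) and MHC class II-high monocytes (39.8 to 21.1 CPM). Cycling cells went the other way (31.2 to 49.7 CPM). Type 1 conventional dendritic cells were also lower, 309 against 181 CPM, a log2 ratio of -0.77 (-1.08 to -0.47), from 127 and 51 cells. Their summed neutrophil markers were 93.4 and 1172 CPM in these libraries, and the part of neutrophil RNA in the difference was not tested.

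Gpnmb in matrix-remodelling macrophages was higher with the STING agonist (log2 ratio 1.16), the LTbR agonist (1.34) and the combination (1.06). Spp1 in C1q-high macrophages was higher with the STING agonist (0.83) and the LTbR agonist (0.80) and within 1.5-fold with the combination, at 706 against 509 CPM. This subset joined 2 subclusters, and the larger had 558, 994, 1344 and 808 CPM of Spp1 while the smaller, led by Cd163 and Cbr2, had 191, 60.04, 92.98 and 73.4 CPM, which was lower in every treated library.

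Apoe and Trem2 with the LTbR agonist were lower in macrophages high in interferon-induced genes, and the C1q-high subset stayed within 1.5-fold. In the former Apoe went from 3211 to 876 CPM (log2 ratio -1.87) and Trem2 from 97.2 to 49.1 CPM (-0.98). The summed C1q genes of this subset moved with them, at 5185 CPM untreated, 1800.04 CPM with the LTbR agonist and 2735 CPM with the combination, as did the summed 12 macrophage and monocyte markers, C1qa and C1qb among them, at 13152, 8498 and 10099 CPM, with all 12 above 0 in each. The part of these in the Apoe and Trem2 values was not tested. C1q-high macrophages had 10126 and 10497 CPM of Apoe in these libraries. In the interferon subset the combination was also lower for both genes, with Apoe at 1787 CPM (-0.84) and Trem2 at 62.0 CPM (-0.64), and Trem2 was also lower in matrix-remodelling macrophages (-0.70) and MHC class II-high monocytes (-0.61). Cd9 in the interferon subset was higher in all treated libraries, at 145, 286, 551 and 325 CPM. The summed level of 10 neutrophil markers moved with it in this subset (530, 906, 928 and 898 CPM) and over the class (550, 897, 901 and 1065 CPM), where Cd9 was 238, 357, 344 and 295 CPM. In the subset 7 or 8 of the 10 were above 0, with Ly6g at 0 in every library, and over the class 9 or 10 were, with Ly6g at 0 in the untreated and STING agonist libraries. For each UMI of these markers there were 0.273, 0.316, 0.594 and 0.362 Cd9 UMIs in the subset and 0.432, 0.398, 0.381 and 0.277 in the class. Neutrophils had 0.0274, 0.0203, 0.0185 and 0.0214. The part of neutrophil RNA in the Cd9 values of the subset and the class was not tested.

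Chil3 Vcan monocytes, which express the classical monocyte gene Ly6c2, had Spp1 at 220, 1464, 211 and 191 CPM and Gpnmb at 3.53, 41.8, 7.06 and 6.79 CPM, so the STING agonist library stood far above the rest. This subset joined 2 subclusters in uneven numbers. One had 261, 235, 741 and 551 cells and Spp1 at 71.3, 25.4, 25.5 and 29.0 CPM, lower in every treated library. The other, led by Pde4c, Cadm4 and Mpo, had 32, 276, 138 and 192 cells and Spp1 at 1200, 2760, 1019 and 665 CPM and Gpnmb at 7.67, 75.7, 19.5 and 26.8 CPM. The high Spp1 of the subset with the STING agonist thus lay in the second subcluster, in its larger share of cells and in its own level, with 32 untreated cells behind the comparison.

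In conventional and mature dendritic cells Apoe, Trem2 and Gpnmb were low. Apoe in mature dendritic cells was 61.7, 69.8, 36.7 and 777 CPM, and their summed C1q genes were 99.3, 82.5, 38.8 and 820 CPM in the same libraries. The combination value therefore came with C1q in a ratio of 0.947, where T cells and NK cells of that library had 0.937 and the class 0.834. The share of mature dendritic cells with an Apoe UMI was 17.7% to 20.9% over the libraries, without thinning. The part of macrophage RNA in the combination value was not tested. Plasmacytoid cells, 29 to 71 per library, had Apoe at 261, 662, 62.7 and 1385 CPM and Gpnmb at 21.3, 90.4, 35.8 and 12.5 CPM from few UMIs. Trem2 in type 2 conventional dendritic cells was 7.41 to 13.1 CPM and Gpnmb 0 to 3.42 CPM. Cd36 there was 11.1, 6.21, 32.2 and 31.4 CPM, higher with the LTbR agonist (log2 ratio 1.52) and the combination (1.49) at low counts.

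Few cells held many members at once. With 2000 UMIs per cell, 11.8%, 13.1%, 8.48% and 9.59% of the class held a UMI of at least 4 of the 8, with intervals of 10.8 to 12.96, 12.2 to 14.1, 7.78 to 9.21 and 8.82 to 10.4 (exact Clopper-Pearson). Without thinning the shares were 32.2%, 35.3%, 22.1% and 16.7%. Of the thinned cells none held all 8 and the most was 7, while 5, 6, 10 and 3 cells held all 8 before thinning. Matrix-remodelling macrophages stood apart with 48.5%, 48.0%, 40% and 41.1%, and C1q-high macrophages had 14.8% to 16.2%. An unnamed subcluster, labelled by Dcstamp and Ccl17 in the figures, had 26.3%, 15.3%, 11.9% and 12.9%. Cycling cells had 9.24% to 17.3%. Monocytes held 4 or more in 1.52% to 8.69% of cells, the highest being Chil3 Vcan monocytes with the STING agonist.

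**Figure D5:**
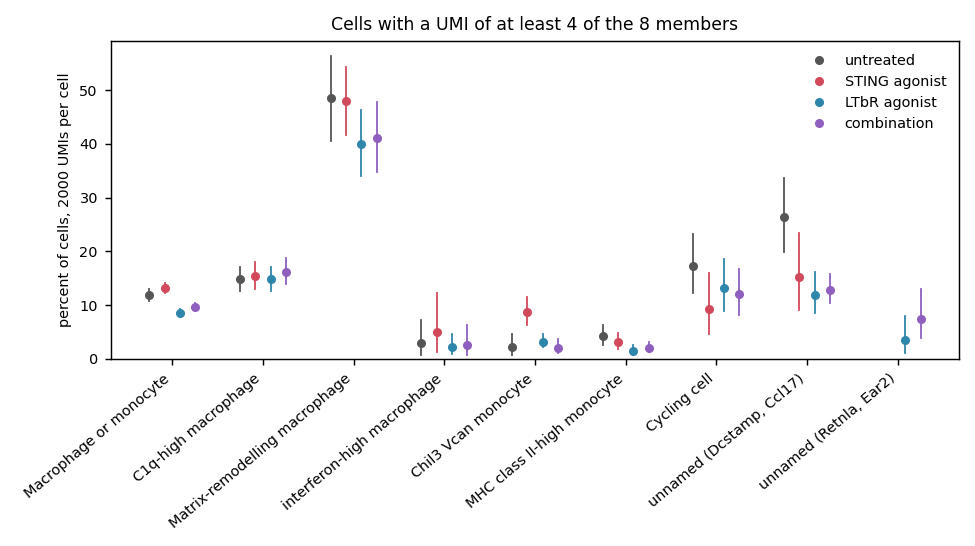
Percent of cells with a UMI of at least 4 of the 8 members after thinning to 2000 UMIs per cell, by subset and library, with exact Clopper-Pearson 95% intervals. Matrix-remodelling macrophages lie between 40% and 48.5%, above every other subset in each library.

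Over the whole class, 1 member of a pair was found more often in cells with the other than in cells without it in all 4 libraries for 14 of the 28 pairs and less often in all 4 for 4 pairs, and the other 10 pairs differed between libraries. Cells with an Apoe UMI held Trem2 3.23 to 4.09 times as often as cells without, 32.0%, 29.6%, 24.9% and 24.6% against 8.71%, 9.17%, 6.42% and 6.00%. The corresponding ratio was 4.38 to 6.09 for Gpnmb in cells with Fabp5, 2.38 to 3.803 for Lpl in cells with Cd36 and 1.78 to 2.31 for Spp1 in cells with Cd9. The 4 pairs below 1 in all 4 libraries were Apoe with Cd36 (0.482 to 0.798), Cd9 (0.701 to 0.973) and Gpnmb (0.641 to 0.988), and Cd36 with Trem2 (0.626 to 0.967). These ratios run across subsets and were not split by subset.

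Across the 43 combinations of library and named subset, the genes whose level was most like Apoe by Pearson r of log2(CPM + 1) were C1qa (0.96), C1qc (0.96) and Itga9 (0.96), and those most like Trem2 were Mertk (0.95), C1qb (0.94) and C1qa (0.94). Il1a (0.95) and Pdpn (0.94) were among those nearest to Spp1, and Gpnmb was closest to Tnfrsf26 (0.83), Npepps (0.83) and Slc23a2 (0.82). Fabp5 was closest to C1qtnf6 (0.90), Socs2 (0.88) and Sh3glb1 (0.86), Cd36 to Cenpv (0.73), Unc119 (0.71) and Ctdp1 (0.70), Lpl to Steap3 (0.91), Myof (0.91) and C1ra (0.89), and Cd9 to Adam8 (0.86), Pdlim7 (0.85) and Errfi1 (0.84). Among the members themselves Apoe and Trem2 were most alike, with 0.96. These points share libraries, depth and subset definitions, and C1qa, C1qb, C1qc, Socs2 and Il1a were among the genes that named the subsets, so the values are a description. They also leave out the unnamed Retnla subcluster, where Lpl and Cd36 had their highest mean CPM.

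Of 60 further genes of the pathway in 6 lists, 55 had enough UMIs in the STING agonist comparison, where 5 were higher and 2 lower past 1.5-fold, beside 4.92% and 11.7% of all genes. With the LTbR agonist 5 of 54 were higher and 1 lower, beside 3.72% and 2.9% of all genes. With the combination 4 of 54 were higher and 1 lower, beside 3.83% and 3.17%. The median log2 ratio over the lists was 0.00, -0.01 and -0.08 in these comparisons and that of all genes -0.20, -0.05 and -0.09. Genes of TREM2 signalling (Tyrobp, Hcst, Syk, Plcg2 and Inpp5d) had 0 of 5 past the limit in each of the 3, and the adaptor Tyrobp stood at 1456, 1505, 1486 and 1463 CPM while Trem2 itself was lower past the limit with the combination alone. Lysosomal genes had 1 of 17 higher with the STING agonist, the protease gene Ctsl at 509 against 305 CPM, and 0 in the other 2. Lipid uptake, storage and efflux genes had 1 of 11 higher in each, Dgat2, which makes triglycerides, at 11.1, 25.8, 23.8 and 22.8 CPM.

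Of the 9 transcription factors, 1 was higher and 1 lower with the STING agonist, 2 higher with the LTbR agonist (Bhlhe40 and Nr1h3), and 1 higher and 1 lower with the combination. Bhlhe40 was higher in all treated libraries, at 211, 346, 400 and 390 CPM, and Pparg, a nuclear receptor of lipid uptake genes, was 24.1 and 16.0 CPM with a log2 ratio of -0.59 with the STING agonist. Bhlhe41 was lower with the combination, 11.6 against 6.43 CPM. Among osteopontin receptors 1 of 4 was higher in each comparison, Cd44, at 818, 1678, 1412 and 1344 CPM. The other phagocyte genes had 1 of 9 higher and 1 lower with the STING agonist, 1 of 8 higher and 1 lower with the LTbR agonist and 1 of 8 higher with the combination. The one higher in each was Csf1, at 12.4, 19.4, 21.2 and 20.4 CPM. Ctsl, Nr1h3 and Csf1 were named after their values were seen. Axl, which binds cells coated with GAS6, was 245 and 129 CPM with the STING agonist (-0.92), and its relative Mertk 338 and 213 CPM with the LTbR agonist (-0.67). Lgmn, a lysosomal protease, was 1493, 1242, 1035 and 1029 CPM and did not pass. In the combination against the STING agonist 2 of 56 genes were higher and 4 lower, beside 6.45% and 3.13% of all genes, with a median of -0.09 over the lists and 0.10 over all genes. Against the LTbR agonist 0 of 55 were higher and 1 lower, Bhlhe41, beside 1.29% and 1.04%, with medians of -0.06 and -0.04.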

How the data were processed

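The deposited files were 4 matrices of UMI counts, which the authors made with Cell Ranger from 10x 5′ libraries against mm10. The labels name version 7.1.0 and the file headers 8.0.1. Library totals ran from 52109958 to 85855398 UMIs. Cells with 300 to 5000 genes and at most 6% mitochondrial UMIs were kept. The automatic doublet threshold of Scrublet marked at most 1 cell per library, so the 305, 949, 857 and 1066 cells with the highest scores (0.4% per 1000 barcodes) were removed.

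Cells were clustered with scanpy 1.11.5 and leidenalg 0.10.2 (2000 variable genes without the members, 30 components, 20 neighbours, resolution 1), all libraries together. A cluster took the marker list with the highest mean log2 fold over the median cluster, or for subsets with most markers among its top 10 genes. At least 3 markers had to stand 1.5-fold above the median cluster. Clusters stayed unnamed where another list or class led, where lists tied, where class and subset differed, or where shallow cells had no marker among the top genes. These rules were set after the data were seen. The members, marker lists and pathway lists were chosen with earlier results of these data known. Genes with at least 200 UMIs over both libraries were compared, with 0.5 UMIs added to each sum, exact binomial intervals on ratios, and 1.5-fold as the limit. Subsets needed 50 cells in a library and 50 UMIs over both libraries. All 8 members are named, with the 3 nearest genes of each (at least 20 CPM) and the 2 pathway genes furthest up and furthest down per comparison with untreated. Values of 1 named subset and 1 of the nearest genes are not reported here. Scripts used Python 3.11.15, numpy 2.4.6, scipy 1.17.1 and pandas 2.3.3, and the ratio script was tested on simulated data.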

Additional observations from a re-analysis of the deposited data

Results flagged for a closer look

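Apoe and Spp1 moved in opposite directions in different subsets under the same comparison, each past 1.5-fold with an interval on 1 side of 0. With 1 library per group the difference was not tested in any of these cases.

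Apoe in the combination against the untreated library had a log2 ratio of 3.64 in mature dendritic cells and -0.84 in interferon-induced gene-high macrophages. Against the STING agonist library the values were 3.46 in mature dendritic cells and -0.63 in matrix-remodelling macrophages. The share of mature dendritic cells with an Apoe UMI, without thinning, was 17.7% to 20.9% over the libraries. Those of the combination also held more UMIs of the 12 macrophage and monocyte markers, 1783 CPM against 158 to 418 CPM in the other libraries. Their C1q genes summed to 820 CPM against 38.8 to 99.3 CPM in the other libraries, and C1q was also lower where Apoe was lower. In the interferon subset C1q was 5185 CPM untreated and 2735 CPM with the combination, with 0.619 and 0.654 Apoe UMIs for each C1q UMI. In matrix-remodelling macrophages C1q was 7240 CPM with the STING agonist and 4725 CPM with the combination, with 1.096 and 1.088. Whether the Apoe values differ apart from C1q was not tested.

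Spp1 with the LTbR agonist against the untreated library had 0.80 in C1q-high macrophages and -0.95 in MHC class II-high monocytes, whose Spp1 was 157 CPM untreated and 81.3 CPM with the agonist. T cells and NK cells of the same libraries read 97.4 and 114 CPM and dendritic cells 31.6 and 19.8 CPM. Krt8 and Krt18, which mark the carcinoma-like cells, moved with Spp1 in these monocytes, at 3.98 and 2.30 CPM summed, with 39.5 and 35.4 Spp1 UMIs for each of their UMIs, and the part of carcinoma RNA in this value was not tested.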

How the results depend on the processing

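Of the 40 log2 ratios (8 members in 5 comparisons) 14 were past 1.5-fold. Under 13 alternatives that kept the 1.5-fold limit, 13 of these kept their sign and 4 stayed past it under all of them. These were Gpnmb with the STING agonist (1.07 to 2.56) and with the LTbR agonist (0.82 to 1.45), and Cd36 with the STING agonist (-1.17 to -0.68) and in the combination against the STING agonist (0.65 to 1.60). Lpl with the STING agonist reversed to 0.16 with equal subset shares. Of the 26 ratios within the limit, 19 stayed there. The Apoe call with the LTbR agonist held in 7 alternatives, and the Lpl call with the combination in 7.

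The 5 members past the limit with the STING agonist became 3 with no upper gene limit, 2 with equal subset shares and 2 at 2-fold. The 2 with the LTbR agonist became 1 at lower clustering resolution, with cells named from their own UMIs, after recentring, with equal subset shares and at 2-fold, and 4 at higher resolution and in the named subsets alone, an alternative chosen after seeing the data, as was adding the shallow cluster to the class. The 3 with the combination became 1 with own UMIs, 1 with equal subset shares and 0 at 2-fold. The 4 in the combination against the STING agonist became 1 with equal subset shares, and the 0 against the LTbR agonist became 1 without the 1% of cells with most UMIs. Other than by its construction, the cause was not tested.

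The shares of cells with at least 4 members became 28.2%, 32.2%, 24.4% and 25.9% with at least 3 members, 2.70%, 3.44%, 2.43% and 2.37% with at least 5, 32.2%, 35.3%, 22.1% and 16.7% without thinning, and 3.45%, 4.88%, 2.87% and 2.74% at 1000 UMIs. With no upper gene limit the STING agonist share was 14.5% and the LTbR agonist share 10.05%. No paired analysis was possible because each group was 1 library, and no spread between tumours could be had. The combination library was the shallowest per cell, which limits its low counts.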
